A study of Rattus norvegicus with 8 samples.

Results

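The genes described here are 36 genes of fatty acid oxidation and of the transcription factor PPAR-alpha (Ppara) that are used as a set of its targets in rodent liver. A gene was taken as a member when the gene name printed for a probe on the array equalled its symbol. All 36 had a probe, among 36181 genes or names on the array, and 35 were bright enough to be tested, of 21874 tested in all. Total liver RNA of male Wistar rats was hybridised to 1-colour Agilent arrays. STL rats (labelled n = 4, arrays 5 to 8) received 1.65 g/kg body weight of butyrate-containing structured lipids by gavage every day. Control rats (labelled n = 4, arrays 1 to 4, age-matched) received 3.0 g/kg of maltodextrin, a dose with the same energy content. Both groups were put through the resistant hepatocyte model of liver carcinogenesis 2 weeks after treatment began, so the controls carry that exposure too, and livers were taken at 8 weeks. The ages of the rats are not given in the sources used here.

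PPAR-alpha is a nuclear receptor that is activated by fatty acids and their derivatives. It binds DNA together with the retinoid X receptor at a pair of AGGTCA-like motifs with a single base between them, and in the livers of rats and mice it drives the enzymes that burn fatty acids. Long chains enter mitochondria through the carnitine shuttle and are shortened there by beta-oxidation, very long chains are first shortened in peroxisomes, and cytochromes P450 of the Cyp4a family oxidise the far end of the chain in the endoplasmic reticulum.

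Sequences of Cyp4a probes and promoters come first, since Cyp4a2 and Cyp4a3 had the widest differences of the members. No Cyp4a2 probe is shown, so these sequences do not tell how well the array separates Cyp4a2 from Cyp4a3. The array carries a Cyp4a3 probe at chr5:135881983-135882119 and a Cyp4a8 probe at chr5:135552413-135552472, both listed on the minus strand of rn4, whose ends cover the same stretch of these related genes. Over 22 aligned bases 16 were identical, and the 6 bases that differ are in capitals. A second, brighter Cyp4a3 probe lies at chr5:135876744-135876803 on the minus strand of rn4 and shares no run of 16 bases with a probe of another gene.
Cyp4a3 probe: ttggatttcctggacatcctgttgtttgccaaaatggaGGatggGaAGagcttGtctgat
Cyp4a8 probe: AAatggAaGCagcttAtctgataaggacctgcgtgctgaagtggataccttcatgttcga
Cyp4a3 second probe: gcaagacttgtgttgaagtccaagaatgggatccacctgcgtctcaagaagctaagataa

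Promoter windows were taken from RefSeq (GRCr8), which held an entry for 29 of the 36 members. The 250 bases before the start of Cyp4a2 (chr5:134170909-134171158, minus strand) and of Cyp4a3 (chr5:134352237-134352486, minus strand) are shown because these neighbours resemble each other: 236 of 245 aligned bases were identical. Both hold a single AGGTCA motif, in capitals, at the same distance from the start. The window before Fabp1 (chr4:104749090-104749339, plus strand) was the only member window that held a paired site, shown in capitals on the opposite strand.
Cyp4a2: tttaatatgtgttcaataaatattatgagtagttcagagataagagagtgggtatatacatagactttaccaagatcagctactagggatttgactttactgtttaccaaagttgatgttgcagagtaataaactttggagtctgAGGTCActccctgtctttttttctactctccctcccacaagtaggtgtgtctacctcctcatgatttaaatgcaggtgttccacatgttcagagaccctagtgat
Cyp4a3: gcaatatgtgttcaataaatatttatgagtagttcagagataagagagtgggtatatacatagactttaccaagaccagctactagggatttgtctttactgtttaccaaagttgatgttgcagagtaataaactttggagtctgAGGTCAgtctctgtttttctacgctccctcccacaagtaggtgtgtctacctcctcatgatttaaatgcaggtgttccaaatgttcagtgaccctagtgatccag
Fabp1: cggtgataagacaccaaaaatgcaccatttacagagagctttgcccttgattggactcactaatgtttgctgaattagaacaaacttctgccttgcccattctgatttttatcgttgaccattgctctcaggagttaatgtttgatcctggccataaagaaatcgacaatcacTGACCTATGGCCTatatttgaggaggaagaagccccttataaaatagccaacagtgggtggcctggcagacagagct
Motifs were searched on both strands in windows from 250 bases before to 50 after the start. The motif AGGTCA was in 9 of 29 member windows (31.0%) and in 15.7% of 27457 rat promoter windows. The exact pair AGGTCANAGGTCA was in 0 of 29 member windows and in 0.0583% of all windows, and the looser pair AGGNCANAGGNCA, which includes the exact one, was in 1 of 29 (3.45%) and in 0.412% of all. These are matches of letters and not measured binding sites.

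The 8 arrays lay on 1 slide with 1 scan time and had no saturated spot, and between 54.2% and 62.8% of their 45598 probes were well above background. Arrays 1 and 2 of the control group differed by only 1.13 times the noise between repeated spots of a probe within an array, against 2.30 to 7.36 times for the other 27 pairs of arrays. They were therefore averaged and counted as 1 sample, which left 4 STL samples and 3 control samples. The labels do not tie each array to a rat beyond its number, so the p-values measure the spread between these samples. Values below are the normalised log2 signal, which is log2 of the processed intensity minus the 75th percentile of its array, and each gene is represented by its brightest probe. Levels of different probes are not comparable, and in whole liver fewer cells of a type and less RNA per cell cannot be told apart. All 6 hepatocyte markers, among them Alb (albumin) and Ttr (transthyretin), were well above background on all 8 arrays.

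Among the 35 tested members, 31 had a higher mean in STL livers than in control livers, against 58% of all genes tested, and 4 had a lower mean: Cpt1a, Pdk4, Fgf21 and Angptl4. The median difference over the members was 0.47 on the log2 scale, against 0.06 over all genes. None passed limma with Benjamini-Hochberg adjustment over all 21874 genes at 0.05. The lowest adjusted p among them was 0.166, and 0.00457% of all genes passed, which is 1 gene (Cish, not a member and named after its value was seen). At an unadjusted p below 0.05, 16 members were higher and 0 were lower in STL livers, against 11.5% and 7.38% of all genes. In 12 members (34.3%) every STL sample was above every control sample, as in 11.2% of all genes, and no member had every STL sample below every control sample, as in 5.62% of all genes. The members are not independent of each other, so these shares are descriptions and not a test of the set.

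**Figure D1:**
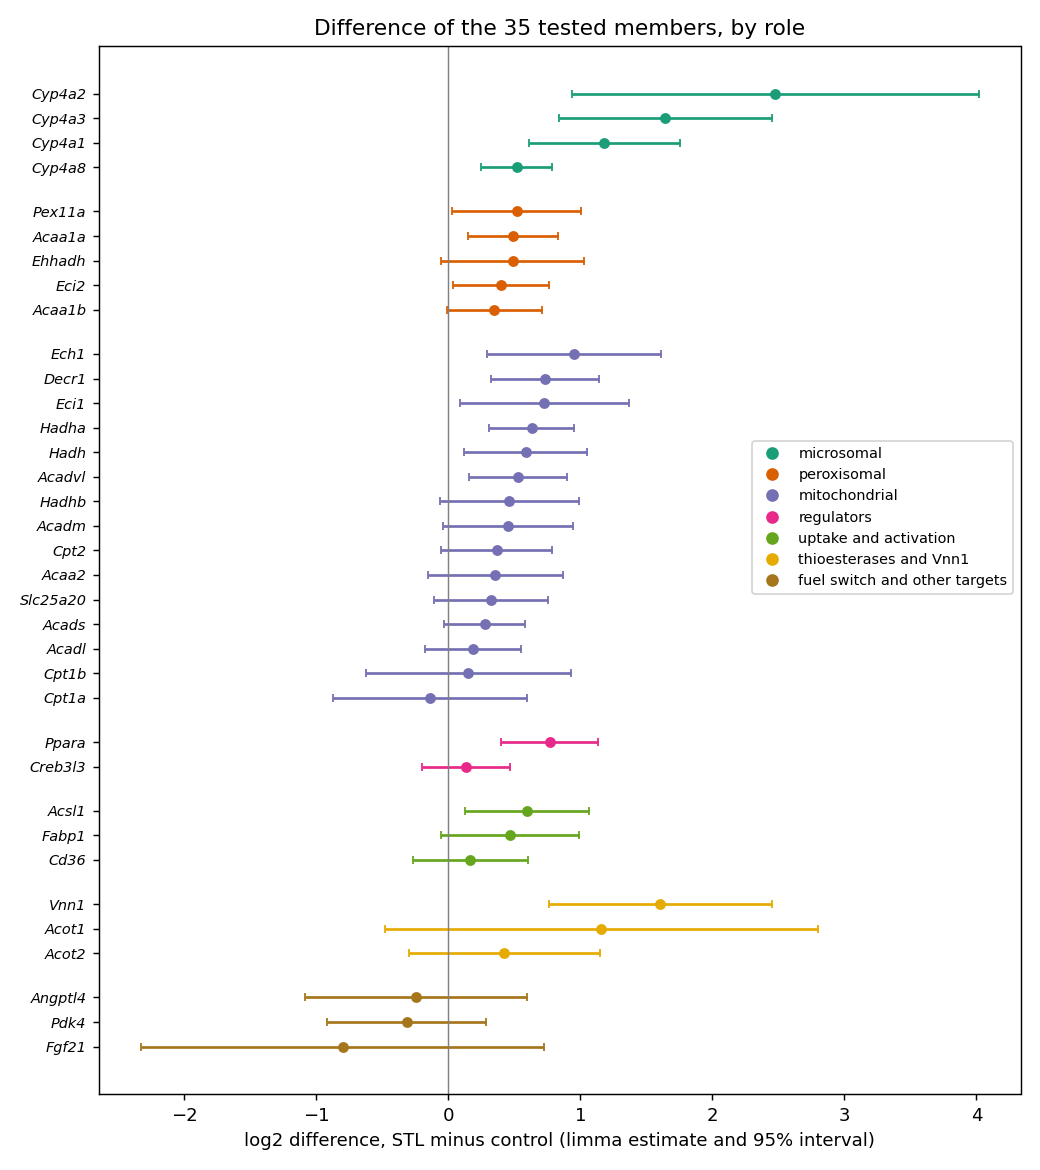
Difference between STL and control livers for each tested member, as the limma estimate of the log2 difference (STL minus control, x axis) with its 95% interval, grouped by role; n = 4 STL and 3 control samples. Intervals lie above 0 for 16 members, among them the 4 Cyp4a genes, Vnn1 and Ppara, and the 4 members left of 0 have intervals that cross it. The intervals are not adjusted for the number of genes tested.

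The microsomal enzymes had the highest median difference of the 7 role groups, 1.41 on the log2 scale, though the group of thioesterases and Vnn1 ranked first with array weights (1.49 against 1.47), without control 4 (1.43 against 1.10) and without STL 8 (1.60 against 1.39). All 4 were above every control sample in every STL sample. They are fatty acid omega-hydroxylases and classical PPAR-alpha targets in rodents. Cyp4a2 had normalised log2 signals of 8.35, 8.23, 8.73 and 8.56 in STL livers, against 7.40 in the averaged controls 1 and 2, 6.62 in control 3 and 3.96 in control 4. The STL samples lay within a narrow band (SD 0.22, n = 4) and the controls were spread widely (SD 1.80, n = 3), with control 4 far below the rest. Its difference was 2.47 ± 0.68 (SE, limma) with a 95% interval of 0.93 to 4.02, a 5.56-fold higher mean in STL livers, and did not pass the test (Benjamini-Hochberg adjusted p = 0.179). Without control 4 the difference was 1.46.

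Cyp4a3 showed the same order of control samples, with 7.55, 7.59, 7.78 and 7.68 in STL livers against 6.85, 6.13 and 5.04 in control livers. The SD was 0.10 among STL samples and 0.91 among controls. The difference of 1.64 ± 0.35 (SE) was a 3.12-fold higher mean in STL livers (limma adjusted p = 0.166). Its other probe, the one that overlaps the Cyp4a8 probe, gave 5.97, 6.10, 6.31 and 6.24 in STL livers against 5.54, 4.64 and 3.31 in control livers, a difference of 1.66. Both probes thus placed control 4 lowest and controls 1 and 2 nearest to the STL samples. Cyp4a2 and Cyp4a3 are close copies, and whether a probe of one also binds the transcript of the other was not tested.

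Cyp4a1, the family member best known from fibrate-treated rats, gave 5.84, 5.54, 5.54 and 5.75 in STL livers against 5.18, 4.05 and 4.23 in control livers. Its difference was 1.18 ± 0.25 (SE), a 2.27-fold higher mean in STL livers (limma adjusted p = 0.166). Here controls 3 and 4 were alike and the averaged controls 1 and 2 were higher. Cyp4a8 gave 4.79, 4.56, 4.73 and 4.75 in STL livers against 4.31, 3.99 and 4.27 in control livers. It had the smallest difference of the family, 0.52 ± 0.12 (SE, limma adjusted p = 0.168), with its STL samples again above all controls. In the other, dimmer probes of Cyp4a8 the groups overlapped. The brightest probe, used here, shares a run of 21 bases with an array probe of another name (LOC102547949).

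**Figure D2:**
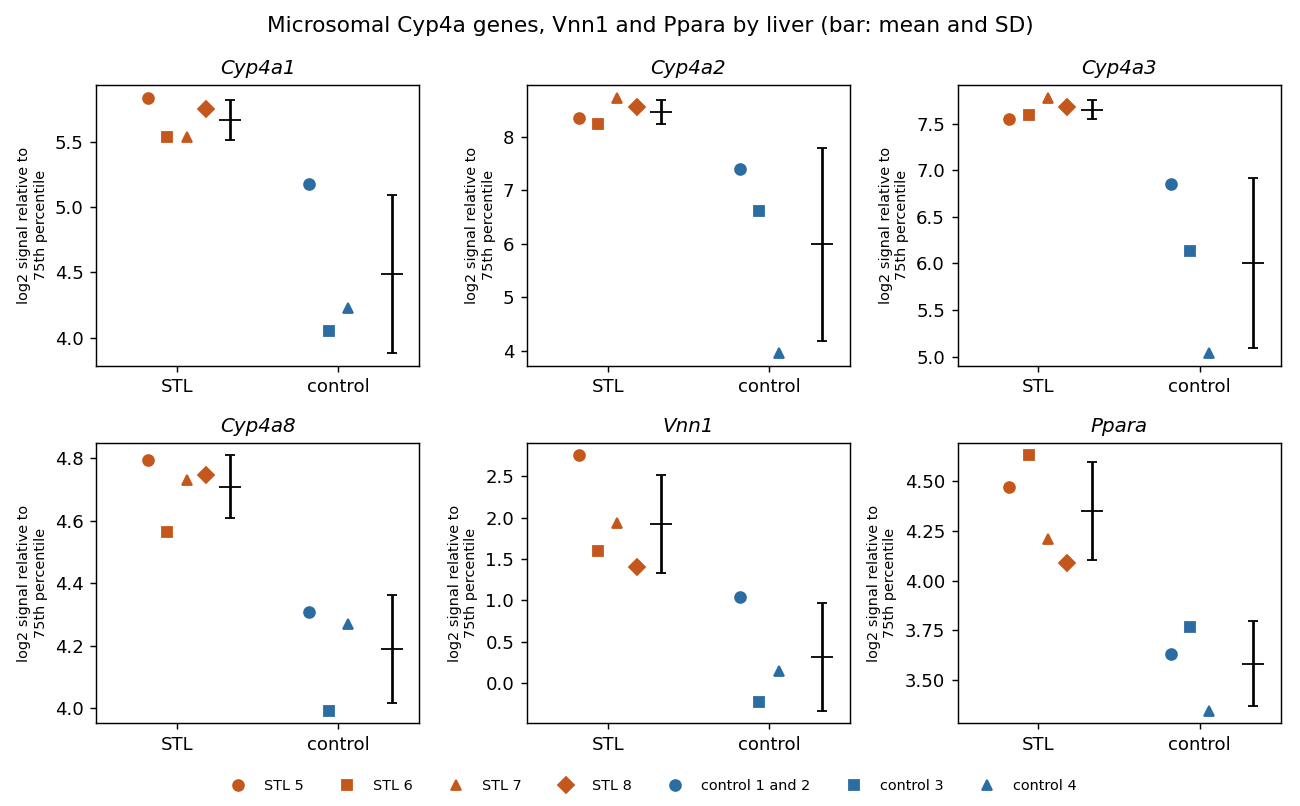
Normalised log2 signal (y axis, log2 of intensity relative to the 75th percentile of the array) of the 4 Cyp4a genes, Vnn1 and Ppara in each sample, STL left of control, with the mean and SD of each group beside the points. Cyp4a2 and Cyp4a3 show tightly grouped STL samples (SD 0.22 and 0.10) beside widely spread controls (SD 1.80 and 0.91).

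The 5 peroxisomal members all had a higher mean in STL livers, within a narrow range of differences of 0.35 to 0.52 and with a median of 0.49. Acaa1a, a thiolase that cuts the shortened chain in the last step of peroxisomal beta-oxidation, gave 7.49, 7.23, 7.01 and 7.12 in STL livers against 6.90, 6.61 and 6.66 in control livers. All STL samples were above all controls, and the difference was 0.49 ± 0.15 (SE, limma adjusted p = 0.182), or 0.32 under quantile normalization. In the other 4 members the groups overlapped. Pex11a, which drives the division of peroxisomes, differed by 0.52 (limma adjusted p = 0.246). Ehhadh, the bifunctional hydratase and dehydrogenase, differed by 0.49 (adjusted p = 0.300), and Eci2, an isomerase for unsaturated chains, by 0.40 (adjusted p = 0.241). Acaa1b, the close paralogue of Acaa1a, differed by 0.35 (adjusted p = 0.276).

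Among the 15 mitochondrial members, 14 had a higher mean in STL livers, with a median difference of 0.45, and in 5 the groups did not overlap. The auxiliary enzymes that handle double bonds in unsaturated fatty acids had the widest differences. Ech1, the dienoyl-CoA isomerase, gave 5.58, 5.35, 5.41 and 5.32 in STL livers against 5.21, 3.73 and 4.45 in control livers. Its difference was 0.95 ± 0.29 (SE, limma adjusted p = 0.182), and it was 0.59 without control 3, the lowest sample. Decr1, the dienoyl-CoA reductase, gave 7.95, 7.61, 7.75 and 7.58 in STL livers against 7.37, 6.71 and 6.89 in control livers. The difference was 0.73 ± 0.18 (SE, limma adjusted p = 0.173), and the STL samples were above all controls. Eci1, the enoyl-CoA isomerase, had a like difference of 0.73 (limma adjusted p = 0.230), but its groups overlapped. The averaged controls 1 and 2, at 6.29, were above STL 6, STL 7 and STL 8 (6.16, 6.12 and 6.18) and below only STL 5 (6.57).

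The core enzymes of the beta-oxidation spiral had smaller differences. Hadha, the alpha subunit of the trifunctional protein, gave 6.66, 6.35, 6.50 and 6.53 in STL livers against 6.14, 5.70 and 5.79 in control livers. With a small spread in both groups, its difference was 0.63 ± 0.14 (SE, limma adjusted p = 0.166). Hadhb, the beta subunit, differed by 0.46 (limma adjusted p = 0.306), and its averaged controls 1 and 2, at 2.85, lay above every STL sample. Hadh, the dehydrogenase for medium and short chains, gave 7.91, 7.62, 7.72 and 7.75 in STL livers against 7.50, 7.34 and 6.65 in control livers. The difference was 0.59 (limma adjusted p = 0.205), and it was 0.33 without control 4, the lowest sample. Acaa2, the mitochondrial thiolase, differed by 0.35 (adjusted p = 0.401) with overlapping groups.

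The acyl-CoA dehydrogenases take the first step of the spiral, each for chains of a different length. Acadvl, for very long chains, gave 5.61, 5.19, 5.21 and 5.27 in STL livers against 5.10, 4.73 and 4.56 in control livers. All STL samples were above all controls by a small margin, and the difference was 0.53 (limma adjusted p = 0.185). Acadm, for medium chains, differed by 0.45 (adjusted p = 0.291), Acads, for short chains, by 0.28 (adjusted p = 0.300), and Acadl, for long chains, by 0.19 (adjusted p = 0.537). The groups overlapped in these 3 genes.

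In the carnitine shuttle, the gate of mitochondrial oxidation, the groups overlapped for all 4 members. Cpt1a, the liver form of the rate-limiting carnitine palmitoyltransferase and a known PPAR-alpha target, gave 3.49, 3.57, 2.30 and 2.63 in STL livers against 3.49, 2.80 and 3.12 in control livers. STL 7 and STL 8 were below all controls while STL 5 and STL 6 were at or near the top, and the difference was -0.14 with a 95% interval of -0.88 to 0.60 (limma adjusted p = 0.834). Cpt1b, the muscle form, differed by 0.15 (adjusted p = 0.83). Cpt2, on the inner membrane, differed by 0.37 (adjusted p = 0.307), and Slc25a20, the carnitine-acylcarnitine carrier, by 0.32 (adjusted p = 0.370).

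Of the regulators, Ppara itself gave 4.47, 4.63, 4.21 and 4.09 in STL livers against 3.63, 3.77 and 3.35 in control livers. All STL samples were above all controls, and the difference of 0.77 ± 0.16 (SE) was a 1.70-fold higher mean in STL livers (limma adjusted p = 0.166). This brightest probe lies at chr7:123812455-123812514 on the plus strand of rn4. Another Ppara probe, with a difference of 0.65, also had all STL samples above all controls. In the dimmest Ppara probe, with a difference of 0.15, the groups overlapped. It gave -1.55 to -0.74 in STL livers against -1.33 to -1.08 in control livers. Creb3l3, a membrane-bound transcription factor that acts with PPAR-alpha on Fgf21 in mouse liver, differed by 0.13 (adjusted p = 0.631) with overlapping groups.

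The 3 members of fatty acid uptake, binding and activation had higher means in STL livers, with a median difference of 0.47, and overlapped in every case. Fabp1, the liver fatty acid binding protein, gave 9.37, 9.16, 9.29 and 9.06 in STL livers against 9.02, 9.07 and 8.17 in control livers. Control 4 stood apart below the others, and the difference of 0.47 (limma adjusted p = 0.300) was 0.18 without it and 0.11 under quantile normalization. Acsl1, which couples fatty acids to coenzyme A, gave 8.32, 8.09, 8.59 and 8.44 in STL livers against 8.18, 7.73 and 7.39 in control livers. The difference was 0.59 (limma adjusted p = 0.203). Cd36, a fatty acid transporter, differed by 0.17 (adjusted p = 0.645).

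Vnn1, a pantetheinase that releases a building block of coenzyme A and is strongly driven by PPAR-alpha in mouse liver, gave 2.75, 1.60, 1.93 and 1.40 in STL livers against 1.04, -0.23 and 0.14 in control livers. All STL samples were above all controls, with STL 5 highest, and the difference of 1.60 ± 0.37 (SE) was a 3.04-fold higher mean in STL livers (limma adjusted p = 0.171). Acot1, the cytosolic acyl-CoA thioesterase, gave -1.09, -2.86, -3.36 and -4.21 in STL livers against -3.40, -5.21 and -3.50 in control livers. The signal was dim, with 4 of 4 STL arrays and 3 of 4 control arrays well above background. The groups overlapped, and the difference of 1.16 had a 95% interval of -0.48 to 2.80 (limma adjusted p = 0.392). It was 0.57 without control 3 and 0.56 without STL 5. Acot2, its mitochondrial paralogue, differed by 0.42 (adjusted p = 0.477).

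The remaining targets did not share this direction. Fgf21, a secreted fasting hormone, gave 1.39, 2.43, -0.19 and -0.24 in STL livers against 2.63, 1.36 and 0.96 in control livers. STL 7 and STL 8 were again the low samples, as for Cpt1a, and the difference was -0.80 with a 95% interval of -2.33 to 0.73 (limma adjusted p = 0.525). Angptl4, a secreted inhibitor of lipoprotein lipase, gave 5.46, 4.53, 5.57 and 4.99 in STL livers against 5.94, 5.71 and 4.50 in control livers, a difference of -0.25 (limma adjusted p = 0.732). Pdk4, the kinase that shuts pyruvate out of oxidation, had a dim signal and differed by -0.32 (limma adjusted p = 0.526). It gave -3.13, -2.82, -2.55 and -2.77 in STL livers against -2.31, -2.11 and -3.10 in control livers. With another background correction (normexp) the Pdk4 difference was -0.037. Ucp3, a mitochondrial carrier best known from muscle, was well above background on 0 of 8 arrays and was not tested.

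**Figure D3:**
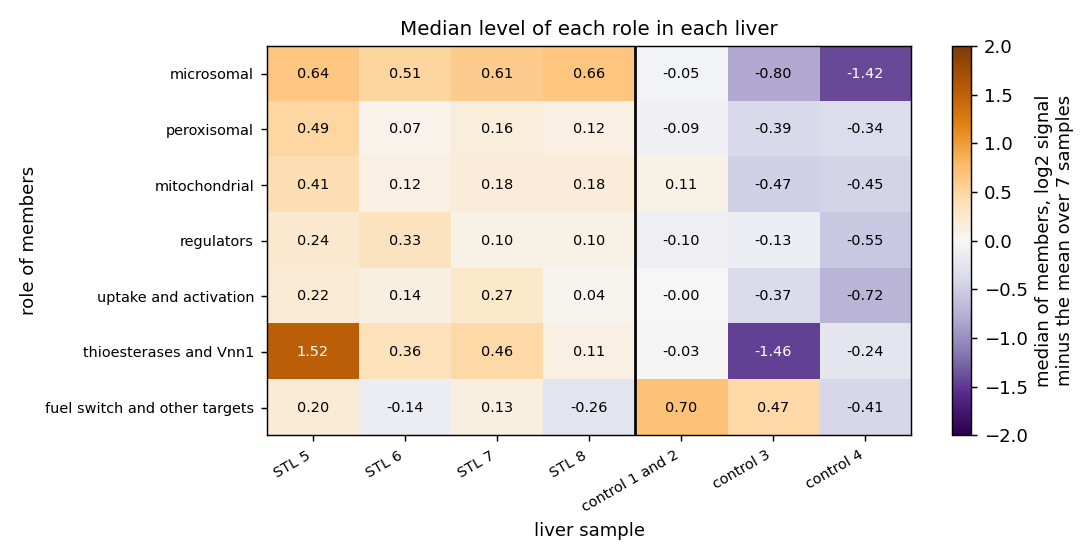
Median signal of each role group in each sample, as log2 relative to each gene's mean over the 7 samples (columns, STL left of control; rows, role groups; colour and printed number give the value). The microsomal row lies between 0.51 and 0.66 in STL samples, against -0.05, -0.80 and -1.42 in the controls, and the mitochondrial row of controls 1 and 2 (0.11) is close to the STL samples.

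The control samples did not sit equally far from the STL samples, as the plot of role groups by sample shows. Relative to each gene's mean over the 7 samples, the median microsomal signal was 0.64, 0.51, 0.61 and 0.66 in STL livers against -0.05, -0.80 and -1.42 in control livers. For the mitochondrial members it was 0.41, 0.12, 0.18 and 0.18 in STL livers against 0.11, -0.47 and -0.45 in control livers. Controls 1 and 2 lay inside the STL range for 16 of the 35 members, above it for 5 and below it for 14. Control 3 was below the STL range for 29 members and control 4 for 27. Control 3 had the lowest signal of the 7 samples in 17 members and control 4 in 15, and controls 1 and 2 in 0, while STL 5 had the highest in 20. The counts by sample were made for the members only, so they are not shown to be particular to the members. Over the repeated spots of the array, STL 5 differed from control 4 by 7.36 times and from control 3 by 6.17 times the noise between spots. Without controls 1 and 2, 24 members had no overlap between the groups in the higher direction, as did 22.2% of all genes.

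Markers of dividing and of altered liver cells also differed between the controls. The summed signal of 5 proliferation genes (Mki67, Top2a, Ccnb1, Cdk1 and Pcna), in multiples of the 75th percentile of the array, was 3.09 to 3.93 in STL livers against 3.83 in controls 1 and 2, 11.1 in control 3 and 10.9 in control 4, and 0 of 5 had a higher mean in STL livers. For 5 markers of preneoplastic lesions (Gstp1, Ggt1, Aldh3a1, Akr1b8 and Abcc3) the sum was 6.60, 103, 24.8 and 9.69 in STL livers against 78.6, 132 and 278 in control livers, again with 0 of 5 higher in STL livers. The 7 stellate cell markers summed to 28.5 to 41.9 in STL livers against 45.0 to 93.1 in control livers, and the 6 hepatocyte markers to 2729 to 4059 in STL livers against 2053 to 2727 in control livers. These sums weigh the brightest probes most. As the mean of gene-centred log2 signals, the hepatocyte markers overlapped between the groups, at -0.01, -0.05, 0.51 and 0.01 in STL livers against 0.06, -0.08 and -0.44 in control livers. The centred stellate values overlapped as well, at -0.45, -0.02, -0.13 and -0.33 in STL livers against -0.04, 0.22 and 0.75 in control livers. Among the stellate markers, Acta2 differed by 0.05 and Lrat by -0.0008. For 6 cholangiocyte markers the sum was 2.20 to 4.73 in STL livers against 3.69 to 9.31 in control livers, and for 5 endothelial markers 54.5 to 78.2 in STL livers against 37.7 to 55.9 in control livers. The centred endothelial values overlapped too, at 0.17, 0.06, 0.18 and -0.21 in STL livers against -0.02, -0.10 and -0.07 in control livers. Macrophage markers (73.6 to 107 in STL livers, 78.7 to 104 in control livers) and lymphocyte markers (0.83 to 1.05 in STL livers, 0.78 to 0.93 in control livers) had overlapping sums. The marker with the smallest p was Top2a for proliferation (difference -2.02, limma adjusted p = 0.174), Aldh3a1 for lesions (-3.77, adjusted p = 0.166), Col1a2 for stellate cells (-0.90, adjusted p = 0.179) and Ttr for hepatocytes (0.45, adjusted p = 0.299). A higher mean in STL livers was found for 5 of 6 hepatocyte, 1 of 7 stellate, 1 of 6 cholangiocyte and 3 of 5 endothelial markers. The hepatocyte marker Cps1 differed by -0.045. The part of these cell populations in the differences of the members was not tested. Of 5 adipocyte markers, Adipoq, Lep and Plin1 were not well above background on any of the arrays, while Cidea and Fabp4 were on all 8, and Fabp4 differed by -1.61 (limma adjusted p = 0.179). The adipocyte sum was 4.40 to 9.67 in STL livers against 6.06 to 8.49 in control livers.

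**Figure D4:**
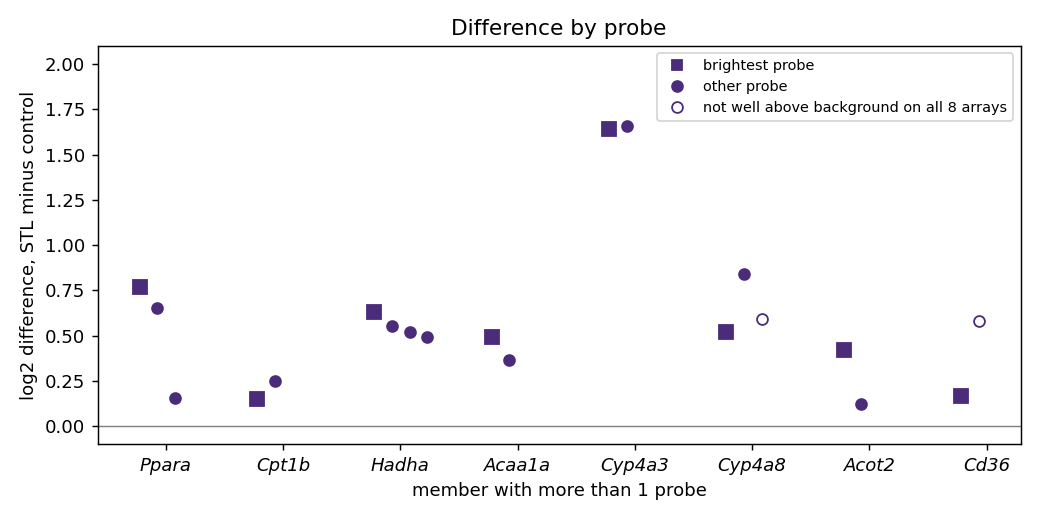
Difference between STL and control livers (log2, STL minus control, y axis) by probe for the 8 members with more than 1 probe; squares are the brightest probe, circles the others, open circles probes not well above background on all 8 arrays. The 2 probes of Cyp4a3 lie at 1.64 and 1.66, and those of Ppara range from 0.15 to 0.77.

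For 8 members the array had more than 1 probe, and every probe of these genes had a higher mean in STL livers. The 4 Hadha probes differed by 0.63, 0.56, 0.52 and 0.49, and the 3 Cyp4a8 probes by 0.52, 0.84 and 0.59, the last of them dim. The 3 Ppara probes did not give like sizes, with differences of 0.77, 0.65 and 0.15. Acaa1a gave 0.49 and 0.37, Acot2 0.42 and 0.12, Cpt1b 0.15 and 0.25, and Cd36 0.17 with its brightest and 0.58 with a dim probe. The separation of the groups seen with a brightest probe did not hold for every probe. The groups overlapped for the Hadha probe at 0.52, the Acaa1a probe at 0.37 and the Ppara probe at 0.15. They also overlapped for the Cyp4a8 probes at 0.84 and 0.59.

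Other genes of the same pathways were read from 5 lists with 81 genes, of which 78 were tested. The list names group genes by pathway, and the location of their products in the cell was not measured. Of these, 66 had a higher mean in STL livers, 0 passed limma in either direction, and the median difference was 0.26. The highest median, 0.48, was that of the 8 further genes listed as microsomal, which include Ephx2, and each of them had a higher mean in STL livers. Among them Cyp4b1, a P450 outside the Cyp4a family, differed by 0.55 (limma adjusted p = 0.173) and Aldh3a2, which oxidises fatty aldehydes, by 0.54 (adjusted p = 0.179). Of 21 further genes listed as peroxisomal 20 were higher, with a median of 0.42. Slc27a2, a very-long-chain acyl-CoA synthetase, differed by 0.55 (limma adjusted p = 0.182), and Pex5, the peroxisomal import receptor, by 0.49 (adjusted p = 0.174).

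Of 17 further genes listed as mitochondrial, which include Acaca and Acacb, 14 were higher, with a median of 0.21. Etfb, a subunit of the flavoprotein that takes electrons from the acyl-CoA dehydrogenases, differed by 0.51 (limma adjusted p = 0.174), and Cpt1c, the brain form of the transferase, by 0.46 (adjusted p = 0.239). Among 14 receptors and coregulators, 11 were higher with a median of 0.20. There the coactivator Ncoa1 differed by 0.32 (limma adjusted p = 0.203) and the receptor Esrra by 0.33 (adjusted p = 0.214). In the list of other targets and lipid handling, 13 of 18 were higher with a median of 0.16. The genes with the smallest p in that list had the opposite sign: Plin2, a lipid droplet coat protein, differed by -0.87 (limma adjusted p = 0.106) and Acsl3, an acyl-CoA synthetase of lipid droplets, by -1.25 (adjusted p = 0.164). In both, every STL sample was below every control sample, and in 2 others of that list every STL sample was above every control sample. Over all lists, 14 of 78 genes had every STL sample above and 2 had every STL sample below. The shares over all genes were 11.2% and 5.62%.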

How the data were processed

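Liver RNA labelled as that of 4 STL and 4 control rats was measured on 8 arrays. The deposited scanner files give spot intensity (processed signal, mean signal and local background) from Agilent Feature Extraction, version 11.5.1.1 per the file headers and 10.7 per the submitters' processing notes. Positions of probes are given on rn4, the build that the file headers name. The authors' series table holds the same intensity times a constant per array. Of its 8 columns, 6 matched an array other than the labelled one within the same group and 0 an array of the other group, so the scanner files were used and the table served as an alternative.

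Of 58717 non-control spots per array, spots of 1 probe were averaged to 45598 probes. For each, log2 of the processed signal minus the array's 75th percentile was taken. Probes were named through RefSeq accessions (21064), symbols (6681) or synonyms (424), and the others kept the files' names. The 36 members were found by the printed gene name, with 48 probes. A gene was tested when its brightest probe with a value on every array passed the scanner's flag for signal well above background on 4 or more arrays. Arrays 1 and 2 of the control group were averaged because their difference was within 1.5 times the noise between spots. STL was set against control in a two-sided limma fit (version 3.58.1, R 4.3.3; lmFit, then eBayes with trend), and p-values were adjusted by Benjamini-Hochberg over 21874 genes and a threshold of 0.05. The procedure was also run on simulated data with independent genes and the same spread in both groups. The members are not independent and some had unequal spreads, so that run does not show how the procedure performs on them. Figures were drawn with matplotlib 3.10.9. The precision is limited by the number of arrays.

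The members and lists were chosen with earlier results of these data known. All members are described. Of other pathway genes, the rule names per list at most 4 past the threshold, or else the 2 with the smallest p; some genes that the rule also names are not reported here. The alternatives were other scalings, background correction, filters, probe choice, array weights, slide position, the authors' table and leaving out each sample.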

Additional observations from a re-analysis of the deposited data

Results flagged for a closer look

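In the 35 tested members, the highest and lowest STL sample were compared with the range of the 4 STL samples, and 2 members had a sample farther from the others than Dixon's 95% critical value for 4 samples allows. Chance alone gives about 1 such group in 20. Cpt1b, the muscle form of the carnitine palmitoyltransferase, had a normalised log2 signal of -1.37 in STL 6, against -0.56 to -0.42 in the other 3 STL livers (gap over range 0.855). Eci1, the mitochondrial enoyl-CoA isomerase, had 6.57 in STL 5, against 6.12 to 6.18 in the other 3 (gap over range 0.880). The 3 control samples were too few for this comparison.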

How the results depend on the processing

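Under 19 alternatives, 7 of which left out a sample, 30 to 33 members had a higher mean in STL livers and their median difference was 0.34 to 0.62. Of 664 recomputed member differences 659 kept their sign. The difference stayed within 1.5 times its reported size in every alternative for 9 members (Ppara, Cyp4a1, Cyp4a3, Cyp4a8, Vnn1, Decr1, Hadha, Acadvl and Pex11a) and left that range in at least 1 for the other 26. The 5 that turned belonged to small differences: Angptl4 was 0.032 and Cpt1a 0.037 without controls 1 and 2, Cpt1a was 0.094 without STL 7, Cpt1b was -0.22 without control 3, and Creb3l3 was -0.039 without control 4. Over the samples left out in turn, Cpt1a reached -0.33 (without STL 6) and Creb3l3 was highest at 0.27 (without controls 1 and 2), with 0.17 without control 3. No member passed limma's threshold in 17 alternatives. With array weights 11 did (adjusted p = 0.0306 to 0.0463), a setting that gave control 3 a weight of 3.18 and STL 8 one of 2.12. Leaving out a sample gave 0 to 6 members, the 6 (Decr1, Cyp4a3, Eci1, Cyp4a1, Ech1 and Hadhb) without controls 1 and 2. Over all genes 1 passed, against 21 with all 8 arrays as samples, 1536 with array weights, 2 with the slide row as a covariate, 10 in the authors' table, and 1 to 205 when a sample was left out (205 without controls 1 and 2, 45 without STL 6). The median of the uptake and activation members was 0.11 under quantile normalization, against 0.47. The cause of these shifts was not tested. The groups share no replicate number in the labels. Each slide column held 1 STL and 1 control array, and with the column as a block over all 8 arrays 1 gene and 0 members passed. The 3 control samples limit the precision, and dim probes (Acot1, Pdk4, Ucp3) limit what can be read from them.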
